A study of Mus musculus with 6 samples.

Results

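The expression of 10 genes of the NF-kappaB system was compared in NK cells after treatment of mice with cytokine complexes of IL-15 (IL-15C) or of IL-2 (IL-2C). The genes were chosen by name as 5 transcription factor subunits (Rela, Rel, Relb, Nfkb1 and Nfkb2) and 5 inhibitors (Nfkbia, Nfkbib, Nfkbie, Nfkbiz and Tnfaip3). Each had a single row in the tables, which gave 10 of 24333 genes, and all 10 passed the filter on low values. The libraries came from splenic NK cells of female C57BL/6 mice, sorted as NK1.1+ NKp46+ cells that lacked CD3 and bound no CD1d tetramer, and each group had 3 libraries. All animals had received a complex, and untreated cells were not analysed here, so every difference is between the 2 treatments. The carrier in the complexes, the dose, the time of harvest and the age of the mice are not given in the sources used here, nor whether replicates were separate mice.

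NF-kappaB proteins act as dimers that are held in the cytoplasm by inhibitors of the IkappaB family until a kinase complex, IKK, marks the inhibitor for destruction. In the canonical branch IKK releases dimers of RelA or c-Rel with the product of Nfkb1. In the noncanonical branch the kinase encoded by Map3k14 triggers processing of the Nfkb2 precursor, which pairs mainly with RelB. Several inhibitors and precursors are themselves NF-kappaB target genes, which forms negative feedback. In NK cells the system operates downstream of activating receptors, TNF family receptors and the receptor for IL-18, and it contributes to cytokine production.

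Promoter sequence from RefSeq (GRCm38.p6, the same assembly as mm10) was matched for 7 of the 10 genes, namely Rela, Rel, Nfkb2, Nfkbia, Nfkbib, Nfkbie and Tnfaip3. Nfkb2 had 3 annotated promoter windows and Tnfaip3 had 2, and for each only the 1 nearest the start of the deposited locus was used. The 250 bases before the annotated start were searched on both strands for the kappaB consensus, the general binding motif of NF-kappaB dimers. With matches that overlap counted each, it was found in 5 of the 7 genes, against 7.25% of all 32851 promoter windows of that length, of which 1.03% held at least 2. A match is a description of the letters and not a measured site. Nfkb2 had the largest difference between treatments, Nfkbia is the textbook feedback inhibitor and Tnfaip3 is another feedback inhibitor, so their windows are shown with the matches in capitals.
Nfkb2, chr19:46304487-46304736, plus strand: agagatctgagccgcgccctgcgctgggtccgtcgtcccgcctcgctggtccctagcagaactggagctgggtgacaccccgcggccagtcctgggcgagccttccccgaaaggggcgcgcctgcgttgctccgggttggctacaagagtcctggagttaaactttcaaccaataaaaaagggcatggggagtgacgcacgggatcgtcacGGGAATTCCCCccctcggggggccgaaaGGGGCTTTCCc
Nfkbia, chr12:55492648-55492897, minus strand: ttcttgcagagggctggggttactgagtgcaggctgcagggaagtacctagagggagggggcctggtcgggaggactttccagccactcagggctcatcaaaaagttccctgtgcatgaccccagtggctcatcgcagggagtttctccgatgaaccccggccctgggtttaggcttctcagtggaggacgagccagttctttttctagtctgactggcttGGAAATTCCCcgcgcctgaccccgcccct
Tnfaip3, chr10:19015411-19015660, minus strand: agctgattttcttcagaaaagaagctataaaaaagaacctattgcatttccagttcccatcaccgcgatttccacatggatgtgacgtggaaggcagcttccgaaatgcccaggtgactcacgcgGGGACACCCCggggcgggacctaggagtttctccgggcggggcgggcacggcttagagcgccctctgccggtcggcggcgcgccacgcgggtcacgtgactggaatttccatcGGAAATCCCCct
In Nfkb2 the matches began 39, 38 and 11 bases before the start. The first 2 of them overlap, and the first, GGGAATTCCC, reads the same on both strands. Nfkbia had a single match that began 29 bases before the start. Tnfaip3 had matches 125 and 12 bases before the start. Rel had overlapping matches that began 92 and 91 bases before the start, GGGAAATCCC and GGAAATCCCC, and Nfkbie had GGGGGATTCC from base 106. Rela and Nfkbib had no match in this window.

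The loci in the library tables (mm10) were chr19:5637490-5648130 for Rela, chr11:23741729-23770970 for Rel, chr7:19606222-19629438 for Relb, chr3:135584655-135691547 for Nfkb1 and chr19:46304737-46312090 for Nfkb2. Those of the inhibitors were chr12:55489409-55492647 for Nfkbia, chr7:28758251-28766644 for Nfkbib, chr17:45555700-45563168 for Nfkbie, chr16:55811377-55838641 for Nfkbiz and chr10:19000910-19015410 for Tnfaip3. Each value is for a whole gene, with no split by exon or transcript. Levels are given as FPKM, fragments per kilobase of transcript for every 1000000 mapped fragments, which allows genes to be compared per length. The deposited intervals implied 23543141 to 27229145 fragments per library, and 661 to 11851 of them per gene and library for the 10 genes. The sort markers Ncr1 (NKp46) and Klrb1c (NK1.1) were at 755 to 832 FPKM and 507 to 557 FPKM. Of the CD3 chain genes, Cd3g was at 30.7 to 44.6 FPKM, Cd3d at 15.3 to 22.3 FPKM and Cd3e at 3.40 to 5.70 FPKM in these cells, which were sorted as CD3-negative. Of the other T cell marker genes, Lat was at 44.0 to 53.9 FPKM, while Cd4, Cd8b1, Cd5 and Cd6 were each at 0.277 FPKM or less. The source of the CD3 chain transcripts was not tested. Summed over 11 B cell marker genes the level was 11.3 to 71.6 FPKM. Over 13 granulocyte, monocyte and macrophage genes it was 51.5 to 131 FPKM, and over 9 erythroid and platelet genes 3.06 to 24.3 FPKM, with the highest sum of both lists in IL-15C replicate 1. That library also lay apart on the second principal component of all tested genes (26.5% of the variance), at 12.9 against -8.14 to 1.74 in the others. On the first component (37.8%), IL-15C replicate 2 was lowest, at -12.8 against -4.62 to 8.95 in the others. For the 10 genes, changes that moved by over 1.5 times or turned without IL-15C replicate 1 are given both ways. For genes outside the 10, the size of the change without that library is not given.

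None of the 10 genes differed between the treatments past the test (limma's moderated test on log2(FPKM + 1), adjusted over 9831 genes), with 0 higher and 0 lower in IL-15C, where 6.44% of all tested genes passed, 1.72% higher and 4.72% lower. Adjusted p-values ran from 0.133 for Nfkb2 to 0.963 for Nfkbia. At an unadjusted p under 0.05 the count was 1 of 10, Nfkb2, against 26.9% of all tested genes. The log2 changes, IL-15C minus IL-2C, ran from -0.05 to 0.24 with a median of 0.05, beside a median of -0.04 over all tested genes. A change above 0 was seen for 8 of the 10 genes and for 35.3% of all tested genes. That count was 5 of 10 without IL-15C replicate 1 (30.4% of tested genes) or without IL-2C replicate 3 (31.8%), with Rela, Relb, Nfkbia, Nfkbib and Tnfaip3 below 0 in both cases, and it was 4 of 10 with array weights (31.9%). The 95% intervals of the 10 changes all lay between -0.17 and 0.45, which is 0.886 to 1.36 as a ratio of FPKM + 1. None of the 10 passed in any of 17 other fits, in which the lowest adjusted p was 0.0771, for Nfkb2 after median scaling. In bulk samples, fewer cells of a type and less RNA per cell cannot be told apart.

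**Figure D1:**
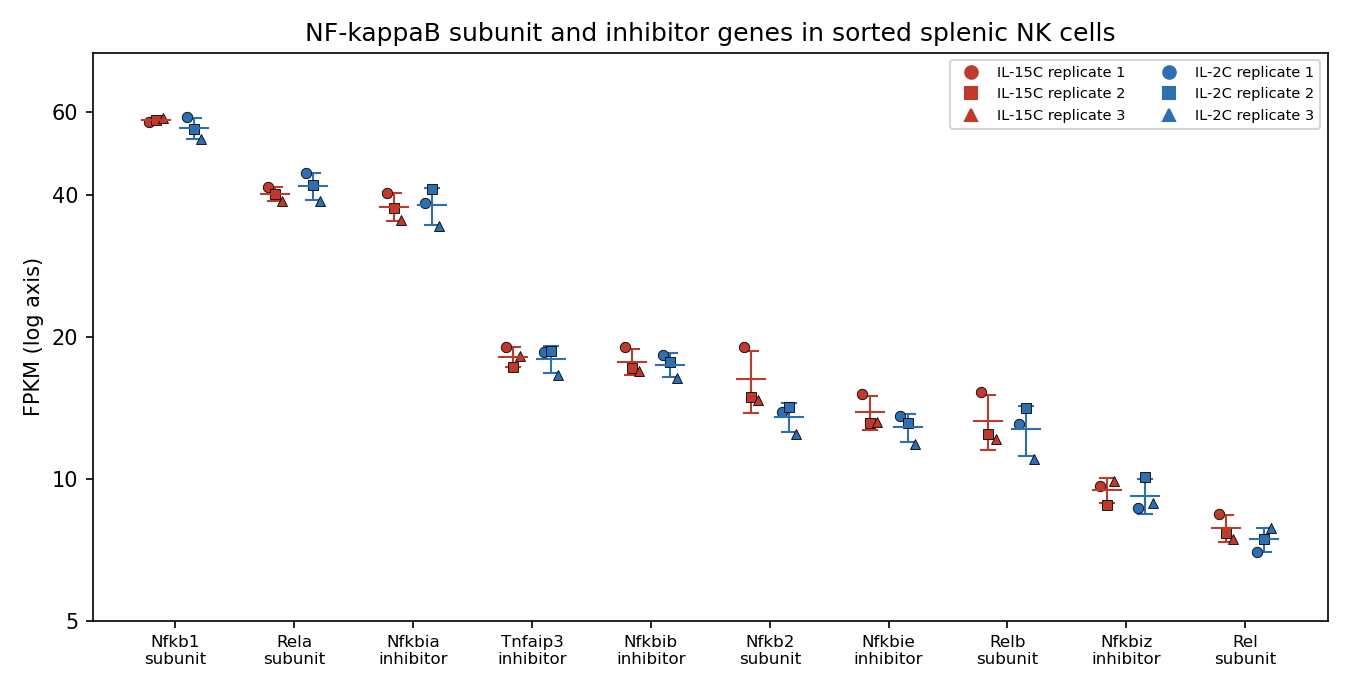
FPKM on a log axis for each gene and library, ordered by mean level, with IL-15C in red and IL-2C in blue, marker shape giving the replicate, and the bar giving the group mean ± SD (n = 3). The groups overlap for 9 of the 10 genes, and for Nfkb2 the lowest IL-15C value, 14.7 FPKM, lies just above the highest IL-2C value, 14.2 FPKM.

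Among the activating subunits, Rela, which encodes the main transactivating partner of the canonical dimer, had 41.6, 40.2 and 38.9 FPKM after IL-15C and 44.5, 42.1 and 38.8 after IL-2C. The lowest and the highest values were both in IL-2C, so the IL-15C values lay inside the IL-2C range. Its log2 change was -0.05 ± 0.05 (SE), with a 95% interval of -0.17 to 0.07 (limma adjusted p = 0.576). Rel, which encodes c-Rel, the subunit most restricted to lymphoid and myeloid cells, had 8.42, 7.66 and 7.45 FPKM after IL-15C and 6.99, 7.46 and 7.84 after IL-2C. The groups overlapped, with the highest value in IL-15C replicate 1 and the lowest in IL-2C replicate 1. The change of Rel was 0.07 ± 0.06, with an interval of -0.06 to 0.20 (limma adjusted p = 0.481), and it was 0.02 without IL-15C replicate 1.

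Relb, the partner of the processed Nfkb2 product, had 15.3, 12.4 and 12.1 FPKM after IL-15C and 13.03, 14.1 and 11.03 after IL-2C. IL-15C replicate 1 and IL-2C replicate 2 were high, and the groups overlapped. The change was 0.06 ± 0.10 with an interval of -0.17 to 0.28 (limma adjusted p = 0.747), and it was -0.04 without IL-15C replicate 1. Its coefficient of variation (SD over mean) between replicates was 13.1% in IL-15C and 12.3% in IL-2C, beside 3.27% from counting alone. The summed B cell markers were 47.7, 11.3 and 21.3 FPKM in the same order after IL-15C and 44.4, 71.6 and 20.8 after IL-2C, and their part in the level of Relb was not tested.

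Nfkb1, whose product is the DNA-binding partner in canonical dimers, was steady at 57.2, 57.6 and 58.2 FPKM in IL-15C. In IL-2C it had 58.4, 55.1 and 52.6 FPKM, so the highest and the lowest values again both belonged to IL-2C. The change was 0.06 ± 0.05 with an interval of -0.05 to 0.16 (limma adjusted p = 0.441). Its coefficient of variation was 0.926% in IL-15C, against 0.945% expected from counting, and 5.26% in IL-2C. This was the single case of 20 pairs of gene and group in which replicates differed by less than the counting error.

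Nfkb2, which encodes the precursor and DNA-binding subunit of the noncanonical branch, showed the largest difference of the 10 genes. It had 19.1, 14.9 and 14.7 FPKM after IL-15C and 13.9, 14.2 and 12.4 after IL-2C. All 3 IL-15C values lay above all 3 IL-2C values, but IL-15C replicates 2 and 3 were close to the IL-2C range and replicate 1 stood well above it. Separation in this direction was seen for 8.15% of all tested genes, in the other direction for 25.1% and in either for 33.3%. The means were 16.2 FPKM ± 2.46 (SD, n = 3) and 13.5 ± 0.937, a ratio of 1.201, and the log2 change was 0.24 ± 0.09 with an interval of 0.03 to 0.45. That interval is not adjusted for the number of genes, and the adjusted p of limma was 0.133. Without IL-15C replicate 1 the change was 0.13 (limma adjusted p = 0.192), and with any other library left out it was between 0.19 and 0.30. The approximate fragment numbers implied by the deposited intervals were 65.7, 56.4 and 55.4 for every 1000000 after IL-15C and 53.3, 49.8 and 52.7 after IL-2C, a ratio of means of 1.14. The groups were again separate on this scale, and the ratio of means was smaller than in FPKM.

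None of the 5 inhibitors passed, and their log2 changes lay between -0.0068 and 0.10. Nfkbia, which encodes IkappaB alpha, the rapidly resynthesised inhibitor of canonical dimers, had 40.4, 37.6 and 35.3 FPKM after IL-15C and 38.5, 41.2 and 34.3 after IL-2C. The groups overlapped, and the ratio of the means was 0.994, with SDs of 2.54 and 3.46 FPKM between replicates (n = 3). Its log2 change was -0.0068 ± 0.07, with an interval of -0.17 to 0.15 (limma adjusted p = 0.963), and it was -0.05 without IL-15C replicate 1. Nfkbib, which encodes IkappaB beta, had 19.0, 17.2 and 16.9 FPKM after IL-15C and 18.3, 17.7 and 16.3 after IL-2C. Both groups spanned nearly the same range, and the change was 0.02 ± 0.06 with an interval of -0.11 to 0.15 (limma adjusted p = 0.842), and -0.03 without IL-15C replicate 1.

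Nfkbie, which encodes IkappaB epsilon, had 15.1, 13.1 and 13.2 FPKM after IL-15C and 13.6, 13.1 and 11.8 after IL-2C. IL-15C replicate 1 was high, IL-2C replicate 3 was low, and the other libraries of both groups lay together. The change was 0.10 ± 0.07, with an interval of -0.05 to 0.25 (limma adjusted p = 0.375), and it was 0.03 without IL-15C replicate 1. Nfkbiz, which encodes the nuclear protein IkappaB zeta, a cofactor that can activate as well as repress target genes, had 9.65, 8.81 and 9.88 FPKM after IL-15C and 8.65, 10.1 and 8.87 after IL-2C. The groups overlapped, and the change was 0.04 ± 0.06 with an interval of -0.11 to 0.18 (limma adjusted p = 0.753), and 0.02 without IL-15C replicate 1. Tnfaip3 encodes a ubiquitin-editing enzyme that shuts off signalling upstream of IKK. It had 19.0, 17.3 and 18.2 FPKM after IL-15C and 18.6, 18.6 and 16.6 after IL-2C, which overlapped. Its change was 0.02 ± 0.06, with an interval of -0.11 to 0.15 (limma adjusted p = 0.862), and it was -0.01 without IL-15C replicate 1. In implied fragments for every 1000000, which involve no transcript length, Nfkbie and Tnfaip3 were separate between the groups as Nfkb2 was, all 3 higher after IL-15C, beside 988 of the 9831 tested genes (10%) separate in that direction, 21.4% in the other and 31.5% in either on the same scale. Tnfaip3 had 68.6, 62.0 and 63.0 after IL-15C against 61.8, 58.8 and 54.5. On that scale neither passed, at limma adjusted p of 0.200 for Nfkbie and 0.159 for Tnfaip3.

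**Figure D2:**
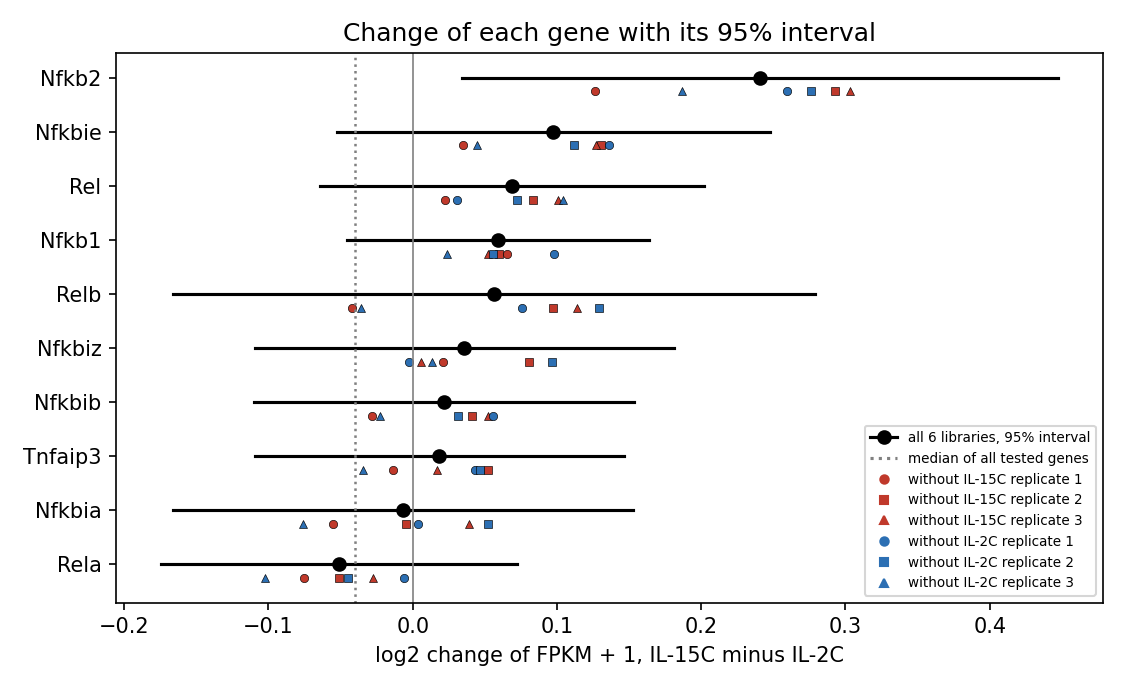
Black points give the log2 change of FPKM + 1, IL-15C minus IL-2C, with its 95% interval from limma, and the small markers below each give the change with 1 library left out. The interval includes 0 for 9 genes and reaches from 0.03 to 0.45 for Nfkb2, whose change falls to 0.13 without IL-15C replicate 1.

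The order of the mean levels over the 6 libraries was Nfkb1, Rela, Nfkbia, Tnfaip3, Nfkbib, Nfkb2, Nfkbie, Relb, Nfkbiz and Rel. Nfkb1 averaged 56.5 FPKM and Rel 7.64 FPKM, a ratio of 7.40, and the median of all tested genes was 12.6 FPKM. Nfkb1, Rela and Nfkbia stood clearly above the rest, at the 89.3, 84.0 and 82.4 percentiles of tested genes. The ranges over libraries did not overlap between Nfkb1 and Rela, Nfkbia and Tnfaip3, Relb and Nfkbiz, or Nfkbiz and Rel. The ranges of the other neighbours overlapped. Rela exceeded Nfkbia in 6 of 6 libraries and Nfkb2 exceeded Nfkbie in 6 of 6. Tnfaip3 exceeded Nfkbib in 5 of 6, Nfkbib exceeded Nfkb2 in 5 of 6 and Nfkbie exceeded Relb in 4 of 6, so these neighbours are not firmly ordered.

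Ratios within a library do not depend on scaling between libraries. The summed FPKM of the 5 inhibitors divided by that of the 5 subunits was 0.729, 0.708 and 0.711 after IL-15C and 0.713, 0.757 and 0.716 after IL-2C. The groups overlapped, with means of 0.716 ± 0.0114 (SD, n = 3) and 0.729 ± 0.0245. Rela made up 29.4%, 30.3% and 29.6% of the summed subunit FPKM after IL-15C and 32.5%, 31.7% and 31.6% after IL-2C, with every IL-15C share below every IL-2C share. Nfkb2 made up 13.5%, 11.2% and 11.2% after IL-15C and 10.1%, 10.7% and 10.1% after IL-2C, with every IL-15C share above. The shares of Nfkb1, Relb and Rel overlapped, and Nfkb1 had the largest share in each library at 40.4% to 44.3%. In FPKM 33.3% of all tested genes were separate between groups in either direction. In implied fragments, which are not scaled to gene length, the Nfkb2 share overlapped narrowly, as IL-2C replicate 3 lay just above IL-15C replicate 3. The Rela share stayed separate there. Shares of a fixed total are not independent of each other, and they were not tested.

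**Figure D3:**
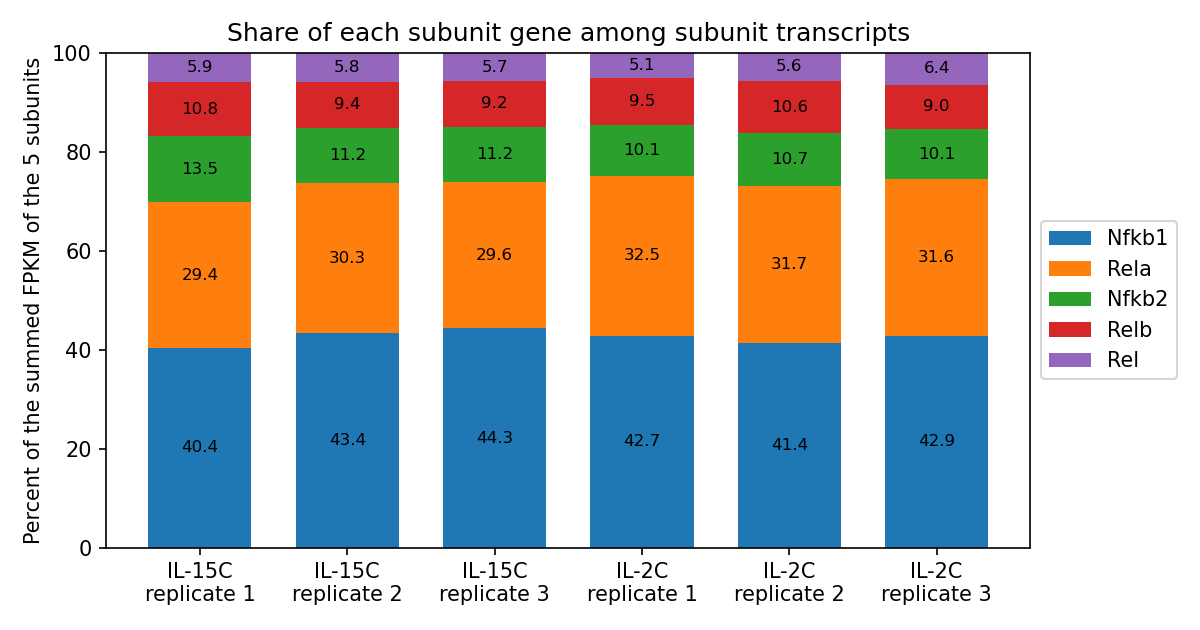
Stacked bars give the percent of the summed FPKM of the 5 subunit genes that each subunit takes in each library. Rela takes 29.4% to 30.3% after IL-15C and 31.6% to 32.5% after IL-2C, while Nfkb2 takes 11.2% to 13.5% and 10.1% to 10.7%.

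Of 5 ratios between pairs of genes, 1 singled out after its values were seen was that of Nfkb2 to Relb, the partners of the noncanonical dimer. It was 1.25, 1.202 and 1.21 after IL-15C and 1.06, 1.01 and 1.13 after IL-2C. In FPKM the groups did not overlap, and IL-15C replicate 1 did not stand out. Single genes were separate in either direction in 33.3% of all tested genes. In implied fragments this ratio overlapped between the groups, with its highest and lowest values both in IL-2C. There IL-2C replicate 3 had 1435 fragments for Nfkb2 and 846 for Relb, beside 1361 and 918 in IL-15C replicate 3. The FPKM ratio of Nfkb2 to Nfkb1 overlapped between groups, at 0.334, 0.259 and 0.253 against 0.238, 0.258 and 0.237. Ratios of Relb to Rela, Rel to Rela and Nfkbia to Rela overlapped too.

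IL-15C replicate 1 was the highest library of its group for 8 of the 10 genes, the exceptions being Nfkb1 and Nfkbiz, and it was the highest for 53.2% of all tested genes. IL-2C replicate 3 was the lowest of its group for 8 of the 10, all but Rel and Nfkbiz, and for 52.6% of all tested genes. After the libraries were scaled to a common median both counts were again 8, beside 38.5% and 31.5% of tested genes. The genes are described here and not counted as replicates. Deviations of log2(FPKM + 1) from the group mean reached 0.23 for Nfkb2 and 0.20 for Relb in IL-15C replicate 1 and -0.18 for Relb in IL-2C replicate 3. The summed granulocyte, monocyte and macrophage markers were 131 FPKM in IL-15C replicate 1 and 51.5 FPKM in IL-2C replicate 3, against 54.4 to 78.3 in the other libraries, and the part of these cells was not tested.

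**Figure D4:**
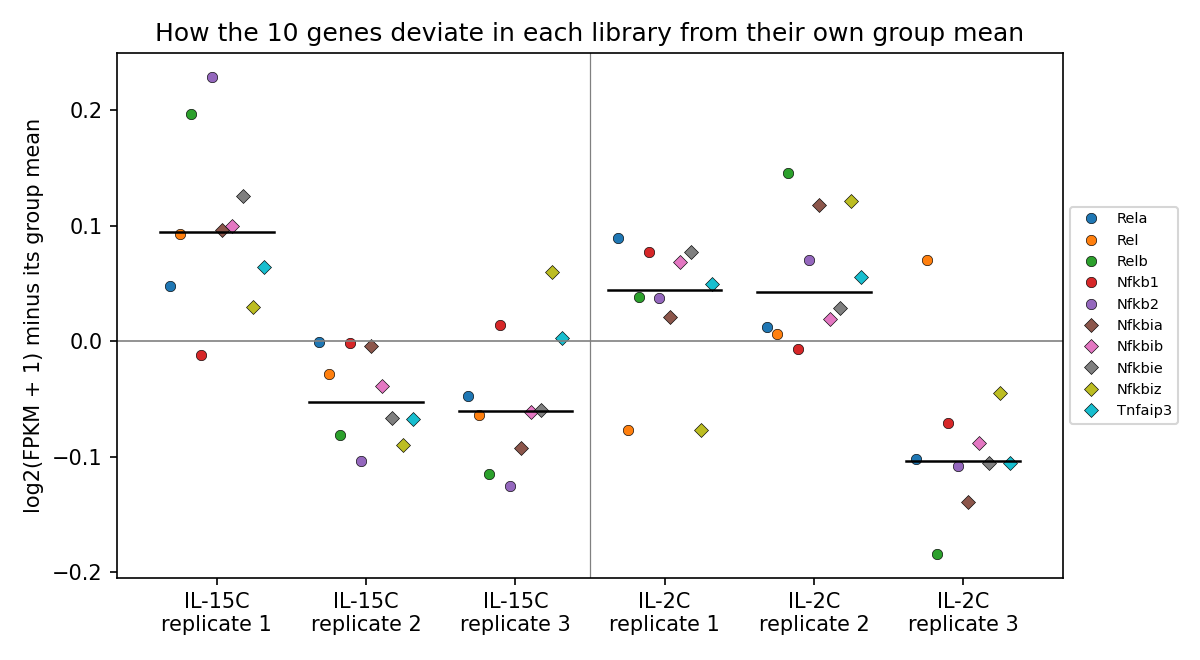
Each point is 1 gene's log2(FPKM + 1) minus its own group mean in 1 library, circles for subunits and diamonds for inhibitors, and the black line is the median of the 10 genes. IL-15C replicate 1 has a median of 0.09 and IL-2C replicate 3 a median of -0.10.

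The tested genes whose log2(FPKM + 1) followed Nfkb2 most closely over the 6 libraries were Galns, Tnks1bp1, Dtx1, Rbm14 and Phgdh, with Pearson r of 0.994, 0.993, 0.992, 0.992 and 0.990. These are descriptions over 6 libraries, picked from all tested genes, and all genes of a library share its depth and scaling. Dtx1, which encodes a regulator of Notch signalling, had 33.0, 24.1 and 22.2 FPKM after IL-15C and 20.2, 20.9 and 17.7 after IL-2C. Like Nfkb2 it was highest in IL-15C replicate 1 and lowest in IL-2C replicate 3, and it did not pass (0.40 ± 0.13, limma adjusted p = 0.0862). Of the other 9 genes, Nfkbie followed Nfkb2 most closely (r = 0.933) and Rela least (r = 0.195).

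Beside 6.44% of all tested genes, 0 of 16 genes of IKK and its upstream kinases passed, and their median log2 change was -0.01. The nearest were Ikbke, an IKK-related kinase, at 0.10 ± 0.05 (limma adjusted p = 0.196) and Ikbkb, the main catalytic subunit for the canonical branch, at -0.08 ± 0.04 (0.213). Chuk, the other catalytic subunit, averaged 24.0 FPKM ± 0.832 (SD, n = 3) after IL-15C and 24.1 ± 0.344 after IL-2C. Map3k14, the kinase of the noncanonical branch that acts on the Nfkb2 product, averaged 9.03 ± 0.0721 and 9.54 ± 0.607; Chuk and Map3k14 were picked for their roles after their values were seen. Of 16 adaptor and ubiquitin ligase genes 0 passed, with a median of -0.02, and the nearest were Birc2, which encodes a ligase that restrains the noncanonical branch, at -0.13 ± 0.04 (0.0889) and Sharpin at -0.12 ± 0.05 (0.135). In other fits, Birc2 and Sharpin passed as lower with array weights, while 0 kinases passed in any fit.

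Of 18 other negative regulators 17 were tested, of which 1 rose, 2 fell and 14 did not pass, with a median change of -0.0076. Over all tested genes 1.72% rose and 4.72% fell, with a median of -0.04. Tnfaip8l2, an inhibitor of immune receptor signalling, had 51.9, 51.9 and 48.6 FPKM after IL-15C and 61.6, 58.3 and 57.5 after IL-2C and fell by 0.22 ± 0.05 (limma adjusted p = 0.0332). Tax1bp1, an adaptor that works with the Tnfaip3 product, had 65.1, 66.3 and 65.8 FPKM against 78.3, 72.5 and 72.8 and fell by 0.18 ± 0.04 (0.0479). Nlrc3, a regulator of the NLR family, had 34.3, 34.9 and 34.7 FPKM against 29.3, 29.9 and 31.6 and rose by 0.19 ± 0.04 (0.0363). These 3 differences were small and separate between groups, as were 33.3% of all tested genes in either direction. Tnfaip8l2 passed only without IL-15C replicate 1 when single libraries were left out, Nlrc3 only without IL-15C replicate 1 or IL-2C replicate 3, and Tax1bp1 in none of the 6 omissions, with adjusted p up to 0.109, 0.133 and 0.122. Tax1bp1 also did not pass after median scaling (0.0814), with the replicate block (0.0544) or without an intensity trend (0.0631). Nlrc3 did not pass after TPM scaling (0.0528), without the trend (0.0505) or in implied fragments (0.0584), nor Tnfaip8l2 in implied fragments (0.567). The nearest that did not pass were Itch at -0.13 ± 0.05 (0.119) and Rnf11 at -0.10 ± 0.04 (0.155), whose products are known to work in a complex with those of Tnfaip3 and Tax1bp1. Bcl3 and Nfkbid, nuclear members of the IkappaB family picked for that role after their values were seen, averaged 11.6 FPKM ± 3.10 (SD, n = 3) against 9.62 ± 1.07 and 17.9 ± 2.11 against 16.6 ± 1.98, and neither passed (limma adjusted p = 0.348 and 0.506).

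Of 21 receptors that signal to NF-kappaB 12 were tested, of which 2 rose, 0 fell and 10 did not pass, with a median of -0.0055. Over all tested genes 1.72% rose and 4.72% fell, with a median of -0.04. Tnfrsf9, the costimulatory receptor 4-1BB, had 29.6, 20.4 and 21.3 FPKM after IL-15C and 13.96, 14.7 and 13.5 after IL-2C and rose by 0.70 ± 0.12 (limma adjusted p = 0.0176). Cd27, a costimulatory receptor of the same family, had 41.8, 38.3 and 38.6 FPKM against 34.0, 34.8 and 32.9 and rose by 0.22 ± 0.05 (0.0347). Both were higher in 3 of 3 IL-15C libraries than in any IL-2C library, as were 8.15% of all tested genes. Cd27 did not pass in implied fragments (0.133). Tnfrsf9 passed without any single IL-15C library but not without any single IL-2C library (limma adjusted p up to 0.0780). Cd27 passed only without IL-15C replicate 1 (0.0463). Tlr4 at 0.14 ± 0.06 (0.203) and Tnfrsf18 at 0.09 ± 0.05 (0.307) were the nearest that did not pass, and 9 receptors were under the filter. Of 13 ligands 4 were tested and 0 passed, with a median of -0.07. Ltb, which encodes lymphotoxin beta, had -0.30 ± 0.13 (0.194), and passed without IL-15C replicate 1 (0.0276). Tnf had -0.21 ± 0.12 (0.297).

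Over all tested genes, 1.72% rose and 4.72% fell. Of 28 textbook NF-kappaB target genes 23 were tested, of which 1 rose, 0 fell and 22 did not pass. Their median change was 0.06, beside -0.04 over all tested genes. Tnfrsf9, which is also in the receptor list, was the 1 that rose. Bcl2l1, which encodes the survival protein Bcl-xL, had 16.9, 12.1 and 14.1 FPKM after IL-15C and 11.6, 10.8 and 10.2 after IL-2C (0.36 ± 0.10, limma adjusted p = 0.0594). The chemokine gene Ccl4 had 143, 91.9 and 99.8 FPKM against 78.6, 79.7 and 78.3 (0.47 ± 0.13, 0.0653). Both were separate between groups without passing, and both were highest in IL-15C replicate 1. Separation in this direction was seen for 8.15% of all tested genes. Bcl2l1 passed after median scaling (0.0403) and quantile normalization (0.0463), with the replicate block (0.0410) and in implied fragments (0.0495), and Ccl4 passed in implied fragments (0.0481). With single libraries left out, Bcl2l1 passed without IL-15C replicate 2 (0.0373) and Ccl4 without IL-15C replicate 1 (0.0164), and the counts of the list in the 6 omissions were 0 to 2 higher and 0 to 1 lower.

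**Figure D5:**
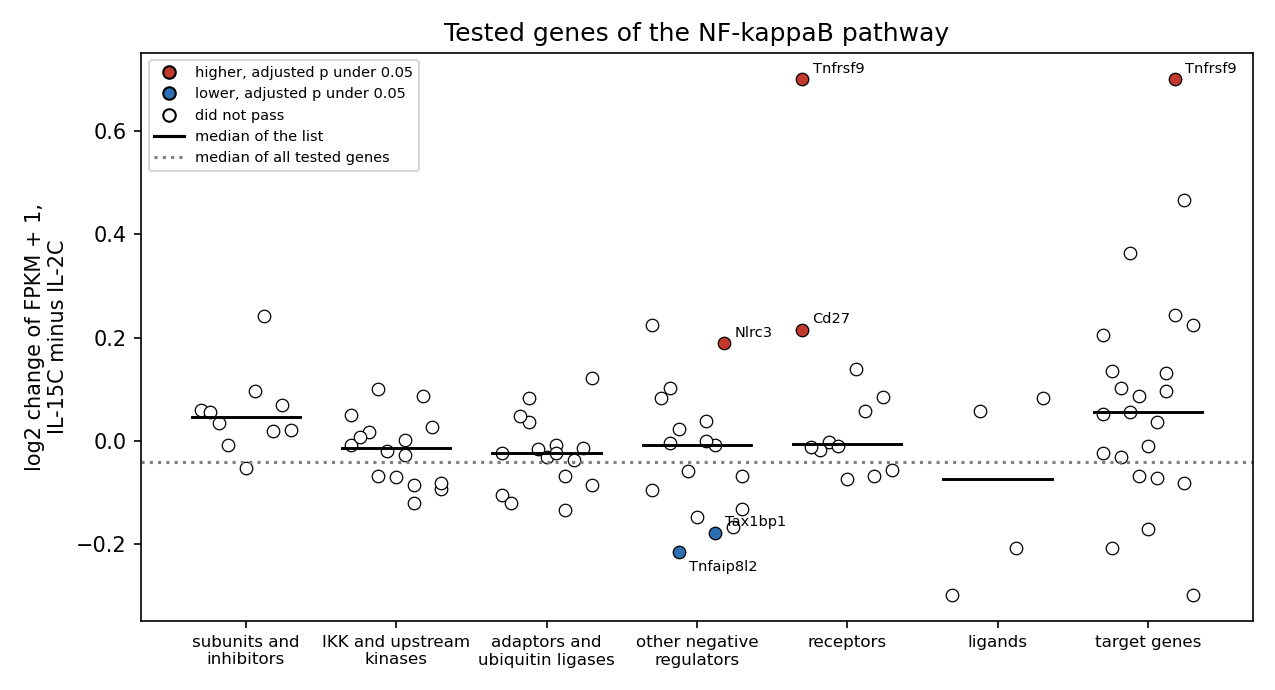
Log2 change of FPKM + 1, IL-15C minus IL-2C, for each tested gene of the 7 lists, with filled points for genes past an adjusted p of 0.05, a black line for the list median with a dotted line for the median of all tested genes, -0.04. The 10 subunit and inhibitor genes lie between -0.05 and 0.24, and the filled points are Tnfrsf9 (shown in both of its lists), Cd27, Nlrc3, Tax1bp1 and Tnfaip8l2.

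In the authors' deposited table with 1 value a group, which was scaled apart from the library tables, Nfkb2 had 22.0 FPKM in IL-15C (interval 18.5 to 25.4) and 17.8 in IL-2C (interval 14.99 to 20.5). The intervals of the 2 groups overlapped for all 10 genes in the authors' deposited table. Ratios of IL-15C to IL-2C in the authors' deposited table ran from 0.993 for Rela to 1.24 for Nfkb2. The authors' deposited table pools the same libraries and is not independent of the tests above.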

How the data were processed

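RNA of 6 libraries was sequenced, 3 per treatment; titles gave the group and the replicate number. The submitters' processing notes name TopHat2 2.0.13, Cufflinks 2.2.1 and mm10, and no annotation. Per the file headers, FPKM with interval bounds was deposited for each library, with a Cuffdiff table of group FPKM. Several rows of 1 gene (280 genes) were added up, and 10 genes with a failed estimate were dropped. Implied fragments were read from each interval as an estimate plus 2 SD of a Poisson count; they are approximate and cover counting error only.

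Genes with a mean of at least 1 FPKM (9831) were tested with limma 3.58.1 (R 4.3.3), with an intensity trend, on log2(FPKM + 1), two-sided, adjusted by Benjamini-Hochberg, at a threshold of 0.05; this scale understates the change of low genes. The test was checked on simulated data. P-values measure only the spread between these libraries, which may be technical. The members and gene lists were chosen with earlier results of these data known. All 10 members are named, with up to 5 called and the 2 nearest uncalled genes per list, and the 5 genes most like the member with the smallest p. Cell type lists matched 8 of 8 NK cell, 8 of 11 T cell, 11 of 11 B cell, 13 of 14 myeloid, 8 of 8 dendritic cell and 9 of 9 erythroid and platelet genes. The T cell, dendritic cell and NK cell sums were 94.8 to 126, 218 to 281 and 7721 to 8882 FPKM. Most of the T cell sum came from Lat, Cd3g and Cd3d. Most of the dendritic cell sum came from Itgax, at 197 to 260 FPKM. Bst2 was at 16.3 to 23.0 FPKM, and no other gene of that list exceeded 2.19 FPKM. Flt3, Xcr1, Clec9a and Siglech were each at 0.0765 FPKM or less. Of these 6 lists only the dendritic cell list had called genes, 1 higher and 1 lower. Alternatives were other pseudocounts, filters and scalings, no trend, array weights, a replicate block and the omission of each library, and, chosen after seeing the data, implied fragments scaled to 1000000 and counts of list genes and of members above 0 in these fits; some results for single genes of the lists are not reported here. Python 3.11.15, pandas 2.3.3, numpy 2.4.6 and matplotlib 3.10.9 were used.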

Additional observations from a re-analysis of the deposited data

How the results depend on the processing

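None of the 10 genes passed in any of the 17 other fits, while the counts over all tested genes, 169 higher and 464 lower, moved widely: 325 and 207 after median scaling, 307 and 269 after quantile normalization, 208 and 328 after TPM scaling, 440 and 1667 with array weights, 6 and 9 without a filter, and 14 to 176 and 15 to 575 with 1 library left out (fewest without IL-2C replicate 2). Nfkb2, Nfkbie, Rel and Nfkb1 stayed above 0 and Rela below 0 in every fit. The sign of the other 5 turned, each time without passing. With array weights Relb was -0.079, Nfkbib -0.019, Nfkbiz -0.045 and Tnfaip3 -0.034. Nfkbia was 0.038 after median scaling, 0.0090 after TPM scaling, 0.022 after quantile normalization, 0.044 in implied fragments scaled to 1000000 and 0.035 in the authors' deposited table. With 1 library left out, the ranges were -0.042 to 0.13 for Relb, -0.076 to 0.052 for Nfkbia, -0.028 to 0.056 for Nfkbib, -0.0027 to 0.097 for Nfkbiz and -0.034 to 0.052 for Tnfaip3. The cause was not tested. Deviations of same-numbered libraries correlated at -0.03, -0.16 and -0.02 over genes, so the numbers were not taken to pair the samples. With the replicate block 171 genes were higher and 346 lower, and Nfkb2 had 0.24 (limma adjusted p = 0.0824). The inhibitor to subunit ratio, -0.0130 as IL-15C minus IL-2C, moved by less than the IL-2C replicate SD of 0.0245 with each library left out, without Nfkbia and in the authors' group values; without IL-2C replicate 2 it was 0.00114, a move larger than the IL-15C replicate SD of 0.0114. Without a filter Tnfrsf9, Cd27, Nlrc3, Tnfaip8l2 and Tax1bp1 did not pass (limma adjusted p 0.0714 to 0.0833). With array weights Birc2 (0.0403), Sharpin (0.0370), Itch (0.0279), Rnf11 (0.0395), Ltb (0.0133), Tnf (0.0267), Bcl2l1 (0.0343) and Ccl4 (0.0332) passed among the genes named as not passing.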
